A study of Mus musculus with 18 samples.

Results

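Somatostatin is a peptide hormone and neurotransmitter that inhibits the cells it reaches, and its gene Sst was examined here with the receptor genes Sstr1, Sstr2, Sstr3 and Sstr4 in mouse hypothalamus. These 5 genes were picked by symbol from the 56980 features of the deposited gene table, keeping for each symbol the feature with the largest total count; each symbol had 1 feature. Over all 18 libraries the total was 2984 counts for Sst (ENSMUSG00000004366), 455 for Sstr1 (ENSMUSG00000035431), 222 for Sstr2 (ENSMUSG00000047904), 169 for Sstr3 (ENSMUSG00000044933) and 2 for Sstr4 (ENSMUSG00000037014). The genes were proposed with earlier results of these data in view, so their tests describe these libraries and are not independent evidence. The first 4 were among the 11835 genes that passed the filter on low counts, and Sstr4 was not.

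Somatostatin neurons of the periventricular hypothalamus send axons to the median eminence, where the peptide enters the portal blood and restrains growth hormone release from the pituitary. Other somatostatin neurons act locally as inhibitory cells, in circuits that include those for feeding. All somatostatin receptors couple to inhibitory G proteins, which lower cyclic AMP, open inwardly rectifying potassium channels and reduce calcium entry.

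The hypothalamus was taken from 18 male C57BL/6JGpt mice, 6 per group, aged 7 months per the deposited sample table. DIO TN-783 mice had eaten fat-rich food from 6 weeks of age for 16 weeks or more and were given TN-783 by gavage at 50 mg/kg in 2 daily doses for 29 days per the labels, or 28 days per that table. TN-783 blocks NLRP3, a sensor protein of the innate immune inflammasome. DIO vehicle mice had the same food and schedule and received the vehicle without the inhibitor. Lean control mice ate chow and were not dosed, so that diet and dosing differ together between them and either obese group. All animals are wild type, and the labels describe vehicle gavage for 14 days before the study without saying whether lean mice took part. The 18 libraries are of independent biological samples, per the labels.

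Library totals were 1993528 to 3589795 counts in DIO TN-783, 1699712 to 2761474 in DIO vehicle and 2070041 to 3695785 in lean control mice. RNA integrity scores were 9.6 to 9.7, 9.5 to 9.9 and 9.4 to 10.0 in these groups. Of 15 hypothalamic marker genes, 13 passed the filter, and the summed level of all 15 was 307 to 638 CPM in DIO TN-783, 371 to 7372 CPM in DIO vehicle and 401 to 676 CPM in lean libraries, where CPM is counts scaled to a common library size. That list holds Pomc, which pituitary cells make too. Replicates 2 and 4 of the DIO vehicle group held pituitary transcripts, with 1773 and 1273 CPM of the hormone gene Prl, against at most 30.2 CPM in the other 16 libraries. Lean control replicate 6 stood apart from its group on the first principal component of all tested genes other than the members. It was at -30.8, against 13.6 to 31.7 for the other lean libraries. It lay within the range of all 18 libraries, with DIO vehicle replicate 6 at -32.6 and DIO TN-783 replicate 1 at -25.3. Leaving it out thus removes the lean library at the low end of a component that obese libraries also reach. Results for the members that involve lean mice are given with and without lean replicate 6. For genes named from the lists, at least the calls are given for both fits.

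The promoters of Sst and Sstr2 both hold the letters TGACGTCA, those of the cyclic AMP response element to which the activator CREB binds and which was characterised in the rat Sst gene. They are shown because cyclic AMP, which somatostatin receptors lower, acts on genes through that element; a match is a description and not a measured binding site. The sequences are the 110 bases before the annotated start, 5′ to 3′ on the gene's strand, from RefSeq on GRCm38.p6, with the element in capitals; Sst lies on the minus strand at chr16:23890845-23890954 and Sstr2 on the plus strand at chr11:113619217-113619326.
Sst: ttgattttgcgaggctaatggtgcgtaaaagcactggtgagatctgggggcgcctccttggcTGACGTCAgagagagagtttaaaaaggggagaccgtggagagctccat
Sstr2: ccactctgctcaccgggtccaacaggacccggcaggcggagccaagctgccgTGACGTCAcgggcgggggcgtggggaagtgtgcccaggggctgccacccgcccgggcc
The element begins 48 bases before the start of Sst and 58 bases before that of Sstr2. It reads the same on both strands and was found in 1.79% of 32851 mouse promoter windows of 250 bases before to 50 after a start. The windows of Sstr3 and Sstr4 did not contain these letters. No window was matched for Sstr1, so its promoter was not searched.

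Sst was lower in both obese groups than in most lean libraries. With every library kept, only DIO vehicle versus lean mice passed the test, and only when the filter on low counts was dropped. The difference between DIO TN-783 and lean mice did not pass without that filter either (edgeR adjusted p = 0.427). DIO TN-783 libraries had 52.6, 55.3, 59.6, 57.2, 81.2 and 76.2 CPM (replicates 1 to 6), DIO vehicle libraries 62.3, 48.8, 57.5, 50.3, 89.1 and 47.2 CPM, and lean control libraries 84.1, 80.9, 97.9, 99.5, 79.5 and 48.9 CPM. DIO vehicle replicate 5 lay among the lean libraries, lean replicate 6 lay among the obese ones, and all 3 groups overlapped. These levels rested on 94 to 326 counts per library.

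**Figure D1:**
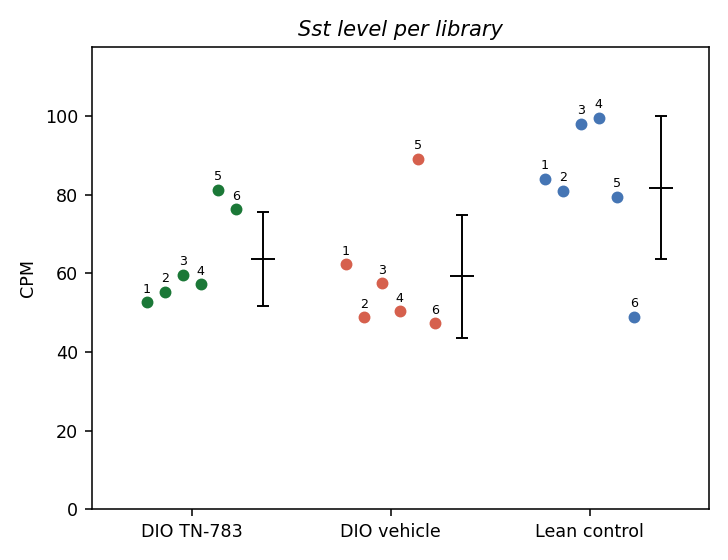
Sst level in CPM for each of the 18 libraries, numbered by replicate, with the group mean and SD as black bars (n = 6 per group). DIO vehicle replicate 5 at 89.1 CPM and lean control replicate 6 at 48.9 CPM lie away from the rest of their groups.

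Sst averaged 59.2 ± 15.7 CPM in DIO vehicle and 81.8 ± 18.2 CPM in lean control mice (SD, n = 6 each). The log2 fold change was -0.47 (SE 0.17, 95% interval -0.82 to -0.12; edgeR's quasi-likelihood fit, adjusted p = 0.351 over 11835 genes), with 5 of 6 DIO vehicle libraries below the lean median. Of all genes tested, 0.00845% were called in this comparison at an adjusted p under 0.05, and 10.9% had an unadjusted p under 0.05. The lean mean was 88.4 ± 9.59 CPM (SD, n = 5) without replicate 6. Sst was then called lower in DIO vehicle mice (log2 fold change -0.58, SE 0.14, edgeR adjusted p = 0.0337), in a fit where 2.89% of genes were called, 1.25% as lower and 1.64% as higher, and 21.6% had an unadjusted p under 0.05. Leaving out DIO vehicle replicates 2 and 4 as well ended that call (-0.46, edgeR adjusted p = 0.107). In bulk tissue, fewer cells of a type and less RNA per cell cannot be told apart.

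Between DIO TN-783 mice, at 63.7 ± 11.97 CPM, and DIO vehicle mice, Sst differed by 0.11 on the log2 scale (SE 0.17, 95% interval -0.24 to 0.47, edgeR adjusted p = 1.00), with 5 of 6 TN-783 libraries above the vehicle median. That value was -0.0046 without DIO vehicle replicates 2 and 4. In this comparison 0% of genes were called by edgeR, 0 were called by DESeq2, and 2.61% had an unadjusted p under 0.05. DIO TN-783 mice stood below lean mice by 0.36 (-0.36, SE 0.16, edgeR adjusted p = 0.611), with 6 of 6 libraries below the lean median, and by 0.46 without lean replicate 6 (-0.46, SE 0.14, adjusted p = 0.0962). The comparison of DIO TN-783 with lean mice called 0% of genes by edgeR with or without that library, with an unadjusted p under 0.05 for 8.16% of genes with it and 19.3% without, and 11 genes by DESeq2 with it. Both comparisons with lean mice share the lean libraries. In order of mean level, lean mice came above TN-783 mice and these above vehicle mice, and no neighbours in that order passed the test with all libraries and the filter on low counts.

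Sstr1, a receptor found on hypothalamic neurons, was also lower in most obese libraries, on 7 to 75 counts per library. DIO TN-783 libraries had 8.85, 10.4, 8.97, 5.40, 7.23 and 13.9 CPM, DIO vehicle libraries 4.88, 5.46, 4.84, 7.57, 10.6 and 4.17 CPM, and lean libraries 12.99, 18.6, 16.2, 16.0, 18.1 and 3.64 CPM. Lean replicate 6, with 7 counts, had the lowest level of all 18 libraries, while the other 5 lean libraries lay above every DIO vehicle library. Over all tested genes, 0.237% had DIO vehicle libraries entirely below lean ones, and 1.79% did without lean replicate 6.

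Sstr1 averaged 6.26 ± 2.43 CPM in DIO vehicle and 14.3 ± 5.56 CPM in lean mice (SD, n = 6 each), a log2 fold change of -1.19 (SE 0.29, 95% interval -1.81 to -0.57, edgeR adjusted p = 0.207). All 6 of 6 vehicle libraries were below the lean median. Without lean replicate 6 the lean mean was 16.4 ± 2.21 CPM (SD, n = 5), and Sstr1 was called lower in DIO vehicle mice (-1.36, SE 0.23, edgeR adjusted p = 0.00733). That call held when DIO vehicle replicates 2 and 4 were left out too (-1.37, edgeR adjusted p = 0.0195). With all 18 libraries and no filter on low counts, both Sstr1 (-1.21, SE 0.23, edgeR adjusted p = 0.000633) and Sst (-0.49, SE 0.13, edgeR adjusted p = 0.0358) were called, in a fit that called 0.338% of 37272 genes.

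In DIO TN-783 mice Sstr1 averaged 9.14 ± 2.91 CPM, between the other groups. Against DIO vehicle the log2 fold change was 0.56 (SE 0.31, 95% interval -0.09 to 1.22, edgeR adjusted p = 1.00), with 6 of 6 TN-783 libraries above the vehicle median and the groups overlapping. Against lean mice it was -0.62 (SE 0.27, edgeR adjusted p = 0.611), and -0.79 without lean replicate 6 (SE 0.21, adjusted p = 0.0752), with 6 of 6 libraries below the lean median. The ordering of the means, with the TN-783 group in the middle, therefore had no step that passed in the filtered fit of all libraries.

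Sstr2, the receptor that carries much of the somatostatin signal to growth hormone cells of the pituitary, had close group means. The lowest, median and highest levels were 2.55, 5.04 and 6.86 CPM in DIO TN-783, 3.66, 4.55 and 8.47 CPM in DIO vehicle, and 3.03, 4.77 and 9.55 CPM in lean libraries. The groups overlapped throughout, and the spread within lean mice was wider than any distance between group means. The means were 5.02 ± 1.57, 5.06 ± 1.78 and 5.24 ± 2.53 CPM (SD, n = 6 each) in these 3 groups.

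Log2 fold changes of Sstr2 were -0.12 for DIO vehicle versus lean (95% interval -0.76 to 0.53, edgeR adjusted p = 0.902), 0.03 for DIO TN-783 versus DIO vehicle (-0.63 to 0.69, adjusted p = 1.00) and -0.09 for DIO TN-783 versus lean (-0.72 to 0.54, adjusted p = 0.942). Values without lean replicate 6 were -0.21 for DIO vehicle (edgeR adjusted p = 0.735) and -0.18 for DIO TN-783 (adjusted p = 0.784) versus lean. The intervals from all libraries include changes of over 0.5 in either direction. DIO vehicle replicates 2 and 4, which held pituitary transcripts, had 4.01 CPM each, within the range of their group. Sstr2 overlaps Slc39a11 on the opposite strand in the GRCm38 annotation. No source used here says if strand entered the counting, so reads of these 2 genes may not be told apart.

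Sstr3, which in mouse neurons is located on the primary cilium, had its highest mean in DIO vehicle mice. The lowest, median and highest levels were 1.28, 4.08 and 5.66 CPM in DIO TN-783, 3.28, 5.43 and 6.48 CPM in DIO vehicle, and 2.23, 3.30 and 3.95 CPM in lean libraries. In 5 of 6 DIO vehicle libraries the level was above that of every lean library, on 3 to 15 counts per library. The low lean levels included replicate 6 but did not rest on it.

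Sstr3 averaged 5.16 ± 1.19 CPM in DIO vehicle and 3.21 ± 0.691 CPM in lean mice (SD, n = 6 each). The log2 fold change was 0.68 (SE 0.29, 95% interval 0.06 to 1.30, edgeR adjusted p = 0.414; 0.64 and adjusted p = 0.229 without lean replicate 6). In DIO TN-783 mice it averaged 3.88 ± 1.52 CPM, a log2 fold change of -0.40 against DIO vehicle (SE 0.29, edgeR adjusted p = 1.00) and 0.28 against lean mice (SE 0.30, adjusted p = 0.770; 0.24 and adjusted p = 0.722 without lean replicate 6). Mean levels of Sst and Sstr1 were thus below, and that of Sstr3 above, the lean mean in DIO vehicle mice, without a call in the filtered fit of all libraries.

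**Figure D2:**
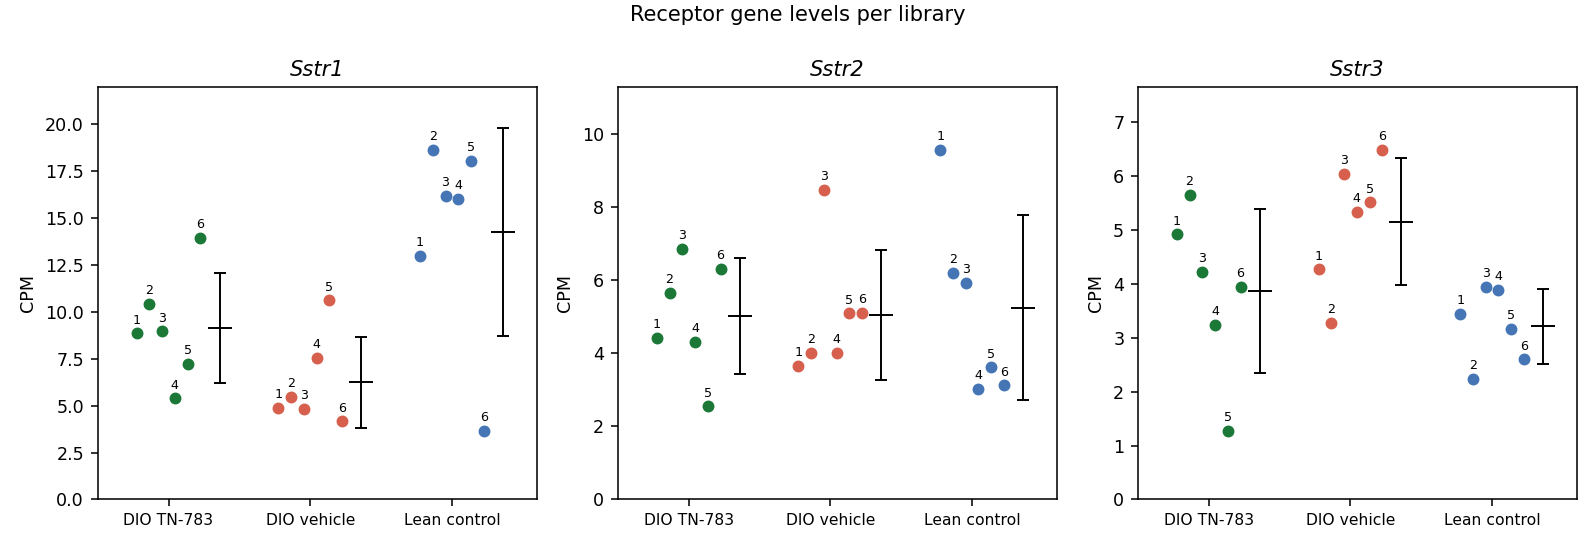
Levels of Sstr1, Sstr2 and Sstr3 in CPM for each library, numbered by replicate, with group mean and SD as black bars (n = 6 per group; each panel has its own scale from 0). For Sstr1 the lean libraries other than replicate 6 lie at 12.99 to 18.6 CPM and the DIO vehicle libraries at 4.17 to 10.6 CPM, whereas the groups overlap for Sstr2.

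Sstr4, in mice mainly a receptor of hippocampus and cortex, had 1 count in the DIO TN-783 group, 0 in the DIO vehicle group and 1 in the lean group. A count of 0 among the 13164649 counts of the DIO vehicle group allows up to 0.228 CPM by library totals, which covers counting error only, so no comparison was made. Of the genes outside the members, Sstr5, the other receptor of pituitary growth hormone cells, had 15, 7 and 12 counts in the DIO TN-783, DIO vehicle and lean groups. Cort, which encodes the related ligand cortistatin, had 1, 3 and 0 counts. Neither passed the filter, and in the fit without one their edgeR adjusted p was at least 0.519 in every comparison.

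**Figure D3:**
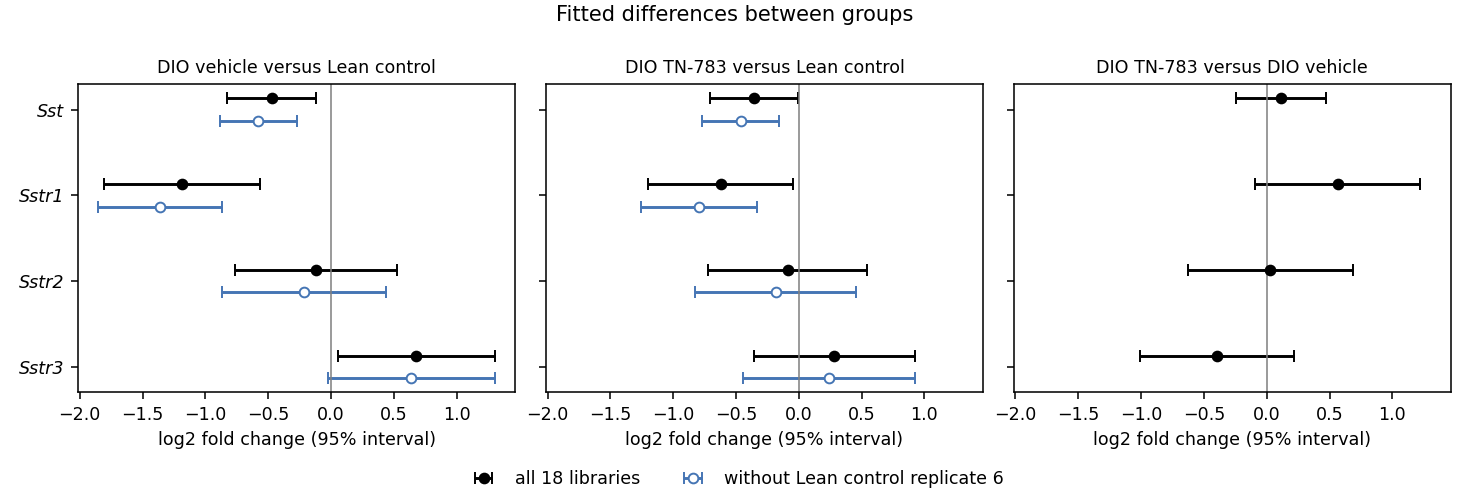
Log2 fold changes with 95% intervals for the 4 tested genes in each comparison, from the fit of all 18 libraries (filled circles) and, where lean mice are compared, without lean control replicate 6 (open circles). For Sstr1 in DIO vehicle versus lean mice the values are -1.19 and -1.36, and for DIO TN-783 versus DIO vehicle every interval includes 0.

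Spread within groups was set beside the spread that counting alone gives at the group's mean count, as a description with no test. For Sst the coefficient of variation was 18.8%, 26.6% and 22.3% in DIO TN-783, DIO vehicle and lean libraries, against 8.01%, 8.91% and 6.81% from counting, and it was 10.9% against 6.45% in lean libraries without replicate 6. For Sstr1 it was 31.9%, 38.9% and 39.0%, against 20.8%, 27.1% and 16.0%, but 13.5% against 14.8% without lean replicate 6, so the wide lean spread of Sstr1 rested on that library. For Sstr2 it was 31.4%, 35.2% and 48.3%, against 28.7%, 30.9% and 26.4%. For Sstr3 it was 39.2%, 23.0% and 21.5%, against 33.0%, 30.5% and 35.0%, below counting in DIO vehicle and lean libraries.

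Sst and Sstr1 varied together across libraries and with measures of the libraries. Over 18 libraries their log2 levels had r = 0.780 (permutation p = 0.000230, which the Benjamini-Hochberg method over 14 relations took to 0.00107) and rho was 0.709 (permutation p = 0.00141, adjusted 0.00493). The value was 0.753 without the 2 libraries farthest in Sstr1, 0.756 without lean replicate 6 and 0.689 over deviations from group means. Within DIO TN-783, DIO vehicle and lean libraries r was 0.211, 0.706 and 0.887. The 5 other pairs of tested members had r from -0.323 to 0.411 (permutation p at least 0.0889, adjusted at least 0.208; rho between -0.273 and 0.381, permutation p at least 0.120, adjusted at least 0.280).

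Both genes were lower in libraries with a higher RNA integrity score. For Sstr1 r was -0.776 (permutation p = 0.000110, adjusted 0.000770) and rho -0.776 (permutation p = 0.000260, adjusted 0.00182). The r was -0.666 without the 2 libraries farthest in integrity, -0.779 over deviations from group means, and -0.336, -0.839 and -0.848 within DIO TN-783, DIO vehicle and lean libraries. For Sst r was -0.613 (permutation p = 0.00648, adjusted 0.0181) and rho -0.576 (permutation p = 0.0136, adjusted 0.0381). The r was -0.477 without those 2, -0.570 over deviations and -0.806, -0.280 and -0.756 within the groups. In DIO TN-783 libraries the score was either 9.6 or 9.7, so r within that group, for both genes, only contrasts these scores. Lean replicate 6 had the highest score, 10.0, and the other lean libraries 9.4 to 9.7. With the score as a covariate, the DIO vehicle versus lean value was -0.83 for Sstr1 (SE 0.25, edgeR adjusted p = 0.545) and -0.32 for Sst (SE 0.15, adjusted p = 0.733).

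Along the first principal component r was 0.839 for Sstr1 (permutation p = 2e-05, adjusted 0.000280) and rho 0.833 (permutation p = 2e-05, adjusted 0.000280). For Sst r was 0.770 (permutation p = 0.000360, adjusted 0.00126) and rho 0.767 (permutation p = 0.000470, adjusted 0.00219). Without the 2 libraries farthest along it r was 0.772 and 0.699, and over deviations from group means 0.860 and 0.722. Within DIO TN-783, DIO vehicle and lean libraries it was 0.716, 0.911 and 0.937 for Sstr1 and 0.387, 0.633 and 0.971 for Sst. For Sstr2 and Sstr3 the relations to integrity and to the component had r between -0.318 and 0.224 (permutation p at least 0.197, adjusted at least 0.345; rho between -0.296 and 0.280, permutation p at least 0.232, adjusted at least 0.423). The part of RNA integrity in the differences between groups was not tested beyond these values. The component is the main axis of these same libraries. The share of all genes with as large an r was not computed for the component, for RNA integrity or for the pair of Sst and Sstr1. The p-values for these relations therefore do not set Sst and Sstr1 apart from other genes. All permutations of relations shuffled the 18 libraries without regard to group, so differences between groups enter those p-values.

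**Figure D4:**
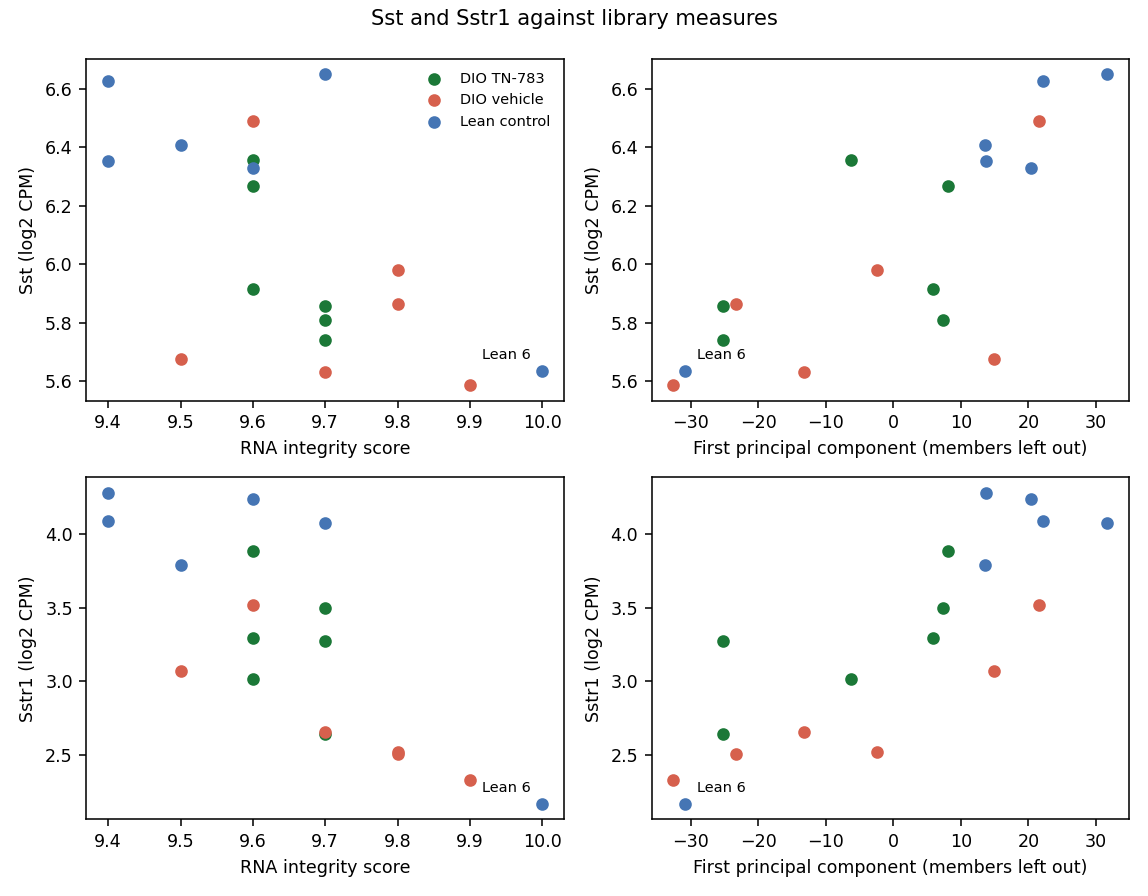
Log2 CPM of Sst (top) and Sstr1 (bottom) against the RNA integrity score (left) and the first principal component of the tested genes other than the members (right), 1 point per library coloured by group. Lean control replicate 6 sits at the low end of both genes, at an integrity score of 10.0 and a component value of -30.8.

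Lean replicate 6 also differed from its group in markers of other cells. Summed levels of 8 oligodendrocyte genes were 3522 to 6864 CPM in DIO TN-783, 3072 to 7413 CPM in DIO vehicle and 2425 to 6226 CPM in lean libraries, where replicate 6 had the top value and the others at most 3117 CPM. Summed levels of 8 astrocyte genes were 3447 to 4734 CPM in DIO TN-783, 3254 to 4260 CPM in DIO vehicle and 3108 to 4064 CPM in lean libraries, again with replicate 6 at the top and the others at most 3241 CPM. Summed levels of 12 general neuron genes were 4235 to 5121, 4165 to 5590 and 4384 to 5410 CPM in these groups, with replicate 6 lowest among lean libraries and the others at 4948 CPM or more. Genes of cortex and hippocampus, whose interneurons also make somatostatin, summed to 248 to 401 CPM in DIO TN-783, 256 to 438 CPM in DIO vehicle and 251 to 452 CPM in lean libraries, with replicate 6 at 251 CPM and the other lean libraries at 407 CPM or more. Of the defining genes in that list, Slc17a7, Neurod6, Tbr1 and Emx1 did not pass the filter with all libraries, at means of 0.117 to 4.90 CPM, and Emx1, a cortical transcription factor, had 5 counts in all. The 3 genes of the list that did pass, Prox1, Wfs1 and Rasgrf2, were all lower in DIO vehicle than in lean mice. Without lean replicate 6, 5 genes of that list were tested in DIO vehicle versus lean mice, 2 higher and 3 lower, with a median of -0.09 beside 0.01 over all tested genes. The 2 higher genes were those that had not passed the filter with all libraries. Without DIO vehicle replicates 2 and 4 instead, 3 of 6 were higher. In the fit without lean replicate 6, which called 1.25% of all genes lower and 1.64% higher, Prox1 (-0.56, edgeR adjusted p = 0.0398) and Rasgrf2 (-0.59, adjusted p = 0.0417) were called lower, and the oligodendrocyte genes Mobp (0.63, adjusted p = 0.0278) and Aspa (0.73, adjusted p = 0.0332) higher, in DIO vehicle than in lean mice. None of them was called with all libraries. Prox1 was then at -0.47 (edgeR adjusted p = 0.326), Rasgrf2 at -0.46 (adjusted p = 0.399), Mobp at 0.47 (adjusted p = 0.357) and Aspa at 0.61 (adjusted p = 0.291). The part of these cells in the levels of Sst and Sstr1 was not tested.

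Endothelial and mural cell genes were higher on balance in DIO vehicle than in lean mice, with 7 of 8 higher, 0 called and a median log2 fold change of 0.33. The glucose transporter gene Slc2a1 differed by 0.53 with all libraries (SE 0.16, edgeR adjusted p = 0.278). Without lean replicate 6 the median was 0.30, and Slc2a1 was called higher (0.59, SE 0.16, edgeR adjusted p = 0.0479). In that fit 1 of 8 was called, beside 1.64% of all genes called higher. In DIO TN-783 versus DIO vehicle mice all 8 were lower, with a median of -0.19 and 0 called. In DIO TN-783 versus lean mice 6 were higher and 2 lower, with a median of 0.15. Cldn5 of this list differed there by -0.65 (SE 0.28, edgeR adjusted p = 0.611), and by -0.78 without lean replicate 6 (adjusted p = 0.108). Summed levels of the 8 genes were 335 to 499 CPM in DIO TN-783, 366 to 505 CPM in DIO vehicle and 303 to 393 CPM in lean libraries, with lean replicate 6 at 320 CPM. The part of these cells in the levels of the members was not tested. Striatum and amygdala genes summed to 182 to 225 CPM in DIO TN-783, 171 to 241 CPM in DIO vehicle and 183 to 233 CPM in lean libraries, and thalamus genes to 350 to 412, 320 to 476 and 342 to 513 CPM, so both lists overlapped between the groups.

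Genes that somatostatin neurons often share were lower on balance in DIO vehicle than in lean mice, as were general neuron genes, without calls in the filtered fit of all libraries. Of the 15 tested shared genes, 11 had lower and 4 higher values, 0 were called, and the median log2 fold change was -0.23, beside 0.01 over all tested genes. Otp, a transcription factor of hypothalamic neurons, differed by -0.41 (SE 0.12, edgeR adjusted p = 0.255), and Satb1, a chromatin organiser, by 0.30 (SE 0.09, adjusted p = 0.269; adjusted p = 0.0593 without lean replicate 6). Without lean replicate 6 the median was -0.28 and 2 of 15 were called lower, beside 1.25% of all tested genes: Otp at -0.44 (edgeR adjusted p = 0.0457) and Npy, the appetite-stimulating neuropeptide Y, at -1.28 (edgeR adjusted p = 0.0426). Of 12 general neuron genes 9 were lower, 0 were called and the median was -0.21. Elavl4, a neuronal RNA-binding protein gene, differed by -0.39 (SE 0.14, edgeR adjusted p = 0.356) and was called lower without lean replicate 6 (-0.49, SE 0.12, adjusted p = 0.0328), the 1 called of 12, with a median of -0.27.

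In DIO TN-783 versus DIO vehicle mice the shared genes had a median of 0.11, with 11 of 15 higher and 0 called, beside a median of -0.01 over all tested genes. Nos1, the neuronal nitric oxide synthase, differed by 0.49 (SE 0.17, edgeR adjusted p = 1.00). Gad1, which encodes the enzyme that makes the inhibitory transmitter GABA, differed by 0.25 (SE 0.13, adjusted p = 1.00).

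Among the genes of the pathway around somatostatin, none was called in the filtered fit of all libraries in any of the 3 comparisons, and with no filter Adcy1 was called higher in DIO vehicle than in lean mice. Of 6 prohormone-processing genes, which cut and mature peptide precursors, 5 were higher and 1 lower in DIO vehicle than in lean mice, with a median log2 fold change of 0.25. Without DIO vehicle replicates 2 and 4, which held pituitary transcripts and were left out of this list after seeing the data, 2 were higher and 4 lower, with a median of -0.074. Cpe, the carboxypeptidase that trims peptide ends, was at 2484 CPM in DIO vehicle and 1967 CPM in lean mice (0.34, SE 0.13, edgeR adjusted p = 0.358; 0.41 and adjusted p = 0.0568 without lean replicate 6). In DIO TN-783 versus DIO vehicle 5 of these 6 were lower, with a median of -0.17, and 3 of 6 were lower, with a median of -0.0044, without those 2 libraries. Pcsk2, a convertase of neuroendocrine granules, averaged 46.7 ± 5.94 CPM in DIO TN-783 and 70.8 ± 31.9 CPM in DIO vehicle mice (SD, n = 6 each; -0.61, SE 0.20, edgeR adjusted p = 1.00). DIO vehicle replicates 2 and 4 had 123 and 96.6 CPM of Pcsk2 and the other vehicle libraries 43.5 to 62.0 CPM; without the 2 the log2 fold change was -0.13 (SE 0.14, edgeR adjusted p = 1.00).

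Inhibitory G proteins and adenylyl cyclases, the first step below the receptors, were split at 7 higher and 6 lower of 13 in DIO vehicle versus lean mice. Adcy1, a calcium-stimulated adenylyl cyclase, averaged 44.8 CPM in DIO vehicle and 25.4 CPM in lean mice (0.82, SE 0.22, edgeR adjusted p = 0.242). Gnai3, an inhibitory alpha subunit, averaged 50.0 CPM in DIO vehicle and 38.6 CPM in lean mice (0.38, SE 0.14, adjusted p = 0.359), and was called higher without lean replicate 6 (0.53, adjusted p = 0.0285). The adenylyl cyclase Adcy1 then differed by 0.84 (edgeR adjusted p = 0.0616). With all libraries and no filter Adcy1 was called (0.80, SE 0.15, edgeR adjusted p = 0.000285).

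Of 8 tested genes for potassium and calcium channels that these receptors act on, 7 were lower and 1 higher in DIO vehicle than in lean mice, with a median of -0.17. Cacna1b, the N-type calcium channel, averaged 33.7 CPM in DIO vehicle and 44.4 CPM in lean mice (-0.39, SE 0.17, edgeR adjusted p = 0.401; -0.49 and adjusted p = 0.0610 without lean replicate 6). In DIO TN-783 versus lean mice 7 of these 8 were lower too, with a median of -0.26, among them Kcnj3, which encodes an inwardly rectifying potassium channel subunit (-0.34, SE 0.12, edgeR adjusted p = 0.611; -0.41 and adjusted p = 0.0836 without lean replicate 6).

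Genes of receptor desensitisation and phosphatases were split, 5 higher and 3 lower of 8 tested in DIO vehicle versus lean mice, with a median of 0.03. Of the growth hormone axis, 5 of 8 genes were tested. Ghrh, the releasing hormone that somatostatin opposes, and its receptor gene Ghrhr did not pass the filter, with 149 and 14 counts in all. Ghr, the growth hormone receptor gene, averaged 13.3 CPM in DIO vehicle and 16.6 CPM in lean mice (-0.33, SE 0.17, edgeR adjusted p = 0.476; -0.40 and adjusted p = 0.174 without lean replicate 6). Igf1 averaged 3.57 CPM in DIO TN-783, against 6.00 CPM in DIO vehicle and 6.36 CPM in lean mice (-0.70, SE 0.23, adjusted p = 1.00 and -0.79, SE 0.22, adjusted p = 0.495). The second value was -0.78 without lean replicate 6 (edgeR adjusted p = 0.0962).

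The genes whose log2 levels over the 18 libraries were most like Sst, among 11061 others with a mean of at least 5 CPM, were Cacna1e, an R-type calcium channel gene (r = 0.909), Gda, encoding guanine deaminase (0.900), the progesterone receptor gene Pgr (0.890), the cadherin gene Cdh13 (0.888) and the histone methyltransferase gene Nsd2 (0.884). Their r over deviations from group means was 0.837 to 0.868. For Sstr1 they were Pgap1, which acts on glycolipid anchors of membrane proteins (0.941), the calmodulin-dependent kinase gene Pnck (0.924) and the synaptic vesicle gene Sv2a (0.922), with 0.918 to 0.968 over deviations. The genes most like Sstr2, led by Dsel, reached 0.707 to 0.776, and those most like Sstr3, led by the ephrin gene Efna2, 0.657 to 0.681. These values are descriptions, since all points share libraries that differ along 1 main component.

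**Figure D5:**
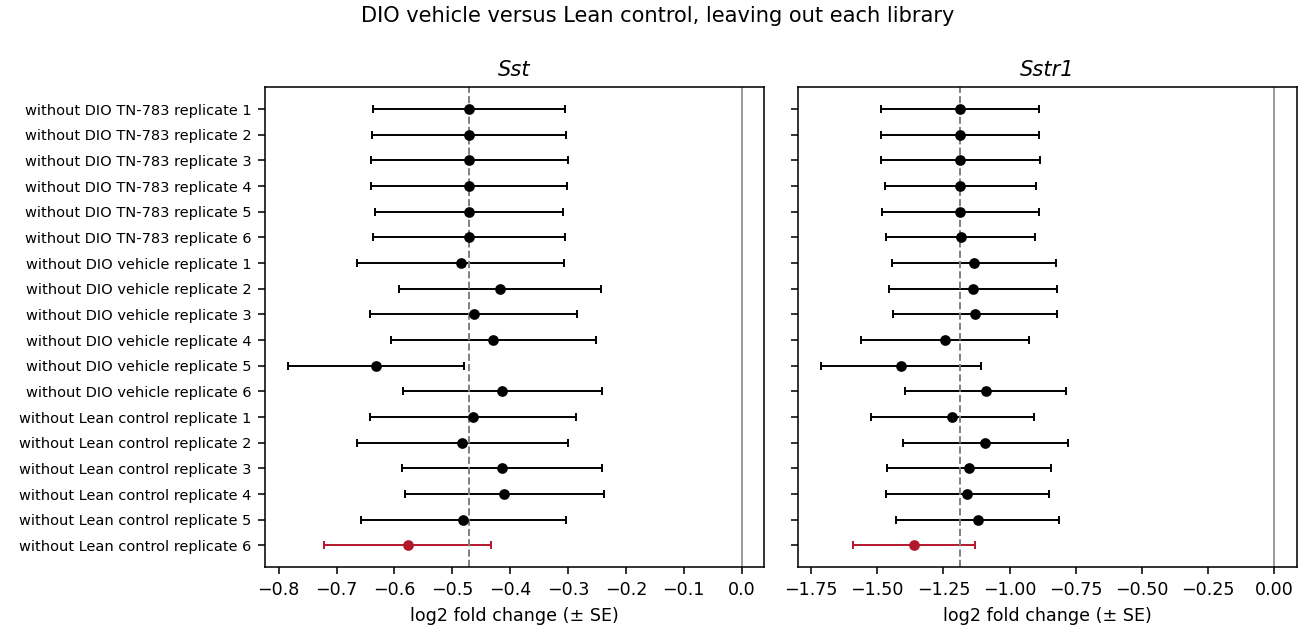
Log2 fold change (± SE) of Sst and Sstr1 in DIO vehicle versus lean control mice when each of the 18 libraries is left out; the dashed line is the value with all libraries and red marks an adjusted p under 0.05. The values run from -0.63 to -0.41 for Sst and from -1.41 to -1.09 for Sstr1, and only leaving out lean control replicate 6 gives a call for either gene.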

How the data were processed

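Libraries came from a 3' mRNA kit that adds unique molecular identifiers, per the labels' protocols, so a count stands for a transcript end and is not divided by length. The authors deposited estimated counts for 56980 features, log2 CPM values, a scaling ratio per library and library totals (a signal summed over features), and an RNA integrity score per sample. The build GRCm39 and the tools R 4.5.1, edgeR 4.6.2, Salmon 1.10.1 and STAR 2.7.9a appear in the submitters' processing notes; no source used here says how identifiers were collapsed. The members and all gene lists were chosen with earlier results of these data known, so their p-values are not independent evidence.

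Estimated counts, of which 12.0% were not whole, were rounded, which replaced the whole counts the design assumed. Genes were filtered by filterByExpr (minimum count 10), scaled by TMM and fitted over the 3 groups with edgeR 4.0.16 (R 4.3.3, robust quasi-likelihood test, 15 residual degrees of freedom, adjusted-p threshold 0.05). SE is the log2 fold change over the square root of F, and 95% intervals use the t distribution. CPM values use TMM-scaled library sizes. Relations used log2 CPM with a prior count of 2, a two-sided permutation test with 100000 resamples, and scipy 1.17.1; Sstr4 could not enter, which left 14 relations. Named genes are the 5 members, up to 4 called genes per list or the 2 with the smallest p, and the 5 genes most like Sst and 3 most like each receptor gene. The edgeR code was tested on simulated data. Alternatives were DESeq2 1.42.0, a replicate block, integrity scores as a covariate, fits of 2 groups, other filters and scalings, and leaving out libraries. Sequences were matched by symbol for 4 of 5 members. Counting intervals cover counting error only.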

Additional observations from a re-analysis of the deposited data

Results flagged for a closer look

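In groups of 6 libraries, DIO vehicle replicate 5 had the highest Sst level of its group at 89.1 CPM, far from the next at 62.3 CPM. DIO vehicle replicate 3 had the highest Sstr2 level of its group at 8.47 CPM, far from the next at 5.09 CPM. These were 2 of 12 groups examined, where chance flags about 1 in 20. The rule sets the gap to the nearest library over the group's range, with a critical value of 0.625. Lean control replicate 6 was not flagged by it, at 0.604 for Sst and, just under the critical value, 0.6243 for Sstr1. Without DIO vehicle replicate 5 the DIO vehicle versus lean value of Sst was -0.63 (edgeR adjusted p = 0.0945).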

How the results depend on the processing

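For DIO vehicle versus lean mice, log2 fold changes over 18 fits that each lacked 1 library were -0.63 to -0.41 for Sst, -1.41 to -1.09 for Sstr1, -0.29 to 0.13 for Sstr2 and 0.56 to 0.80 for Sstr3. Sstr2 turned positive without lean replicate 1 (0.13), with integrity scores added to the model (0.063) and without DIO vehicle replicates 2 and 4 (0.035). With no filter Sst was at -0.49 and Sstr1 at -1.21, both called; the cause was not tested. Without lean replicate 6 and DIO vehicle replicates 2 and 4 together, a choice made after seeing the data, Sstr1 was called at -1.37. DESeq2 gave no adjusted p for Sstr1, Sstr2 and Sstr3 here, and -0.47 for Sst (adjusted p = 0.250). For DIO TN-783 versus DIO vehicle, Sst ranged from 0.034 to 0.27 and Sstr2 from -0.072 to 0.20 over single libraries left out. Sst was -0.0046 without DIO vehicle replicates 2 and 4 and -0.0036 without these and lean replicate 6, and Sstr2 was -0.12 in both and -0.046 with RNA integrity. For DIO TN-783 versus lean, Sstr2 ranged from -0.20 to 0.15 over single libraries left out and was 0.017 with RNA integrity. The cause of these turns was not tested.

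The count of called genes was 1 for DIO vehicle versus lean, 0 to 346 over single libraries left out, 21 with DESeq2, 126 with no filter, 0 with at least 1 CPM in 6 libraries, 0 with the 2 groups only, 0 without DIO vehicle replicates 2 and 4, and 170 without these and lean replicate 6. For DIO TN-783 versus DIO vehicle it was 0, and 6 with no filter. For DIO TN-783 versus lean it was 0, 0 to 5 over single libraries left out, 11 with DESeq2, 27 with no filter, 5 with the 2 groups only, 1 with the replicate block, 2 with RNA integrity and 28 without those 3 libraries. Deviations from group means of same-numbered libraries had correlations of -0.40 to 0.38. They were not set beside those of differently numbered libraries, so they cannot show whether the numbers pair animals. The labels do not say that a number marks a shared litter, batch or day. With the replicate block Sst was at -0.49 and Sstr1 at -1.18 in DIO vehicle versus lean mice. Depth limits Sstr2 and Sstr3, at means of 12.3 and 9.36 counts per library.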
